A study of Mus musculus with 70 samples.

Results

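To examine what remains of an exercise period in the hippocampus after the wheel is gone, dorsal hippocampi of mice that ran for 14 days and then rested for 7 days (14-7-0) were compared with those of sedentary mice (0-0-0). The members were chosen by the exercise label alone and comprised 10 libraries of 14-7-0 and 10 sedentary libraries, 20 of the 70 in the series. All mice were adult C57BL/6J males without a transgene, housed alone. The 14-7-0 mice had a running wheel for voluntary use, which was taken out for the rest period, whereas sedentary mice stayed in a standard cage. Both groups then had a brief, subthreshold training session in the object location memory (OLM) task, in which a mouse learns where 2 identical objects stand, and tissue was taken about an hour later, when memory is being consolidated. Each group was collected in 2 harvest cohorts, replicates 0 to 4 in cohort 1 and replicates 5 to 9 in cohort 2. The labels do not say that each library is a separate mouse, so the p-values below measure the spread between libraries. Values are FPKM (fragments per kilobase of gene, scaled to the size of the library) from poly(A) RNA of the whole dorsal hippocampus.

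Several well-described gene programs were examined in this tissue. Immediate early genes such as Fos and Arc are transcribed within minutes of neuronal activity and are widely used as a record of it. Cholesterol in the brain is made locally, because lipoproteins of the blood do not cross the blood-brain barrier, and its synthesis genes share the transcription factor SREBP-2, which is released when membrane sterol is low. Chaperones of the endoplasmic reticulum (ER), the compartment where secreted and membrane proteins fold, are jointly raised by the unfolded protein response.

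Of the 20 libraries, 2 stood apart. Values without them are given below for a part of the genes, and other fold changes, which hold all 20 libraries, can move without them. The sedentary replicate 6 had 2.45 FPKM of Neurod6 and 17.1 FPKM of Slc17a7, both markers of excitatory neurons, against 130.1 to 235 FPKM and 509 to 817 FPKM in the other 9 sedentary libraries. In the same library Slc32a1, the vesicular transporter of inhibitory neurons, was at 175 FPKM and Calb2 at 121 FPKM, against at most 39.0 and 10.5 FPKM in the other sedentary libraries. The 14-7-0 replicate 4 was shallow: 10279 genes were listed at 0, against 6243 to 7199 in the other 69 libraries, and its estimated depth was 0.0360 of that of sedentary replicate 0, against 0.442 to 1 in the other 19 libraries. The depth itself cannot be read from the values, since they are already normalized. The study lists total reads for its sequencing samples, with a single entry far below the others. Its codes are not matched to the library names used here.

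Across the 12994 genes whose average over the series reached 1 FPKM, 208 genes were higher (1.6%) and 216 lower (1.66%) in 14-7-0 at an unadjusted p under 0.05, the criterion that the study applied and that "rose" and "fell" refer to below. Together these 424 genes were 3.26% of those tested, fewer than the 649.7 that the threshold alone would pass if no gene differed. None passed at an adjusted p of 0.05 in limma with Benjamini-Hochberg adjustment, and the adjusted p was 0.968 for each of the 424. A Cyber-T test on the log2 values called 244 genes before and 0 after adjustment. The count depended on the fit: a joint limma fit of all 7 groups called 896 genes, above 649.7, and 0 after adjustment (smallest adjusted p = 0.135). Without both libraries 247 genes rose (1.9%) and 250 fell (1.92%), and 205 of the 424 genes were called with the same sign in that fit too. The split between higher and lower was sensitive to scaling: 49.1% of the called genes were higher with FPKM as deposited, 59.7% with median ratio scaling and 61.5% with quantile normalization.

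The differences were small. Among the called genes the median absolute log2 fold change was 0.23, and 25 of them exceeded 0.5. For 10466 genes (80.5%) the whole 95% interval of the log2 fold change lay within 0.5 of 0, and the median half-width of the interval was 0.22. In 0 of the 12994 genes did the 10 libraries of one group lie entirely above those of the other. The effect was not found to differ between cohorts: 47 genes had an unadjusted p under 0.05 for the interaction of group and cohort, with a smallest adjusted p of 1 in limma, and 108 did without sedentary replicate 6.

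The genes that rose with the smallest p, were called without both libraries and had the same sign in both cohorts included transporters, chromatin and signalling genes. Slc30a1, which exports zinc from the cell, had 7.14, 9.14 and 10.7 FPKM (lowest, median and highest) in sedentary mice and 9.26, 11.1 and 13.0 FPKM in 14-7-0. All 10 libraries of 14-7-0 lay above the sedentary median and 6 above the highest sedentary library, and the log2 fold change was 0.28 ± 0.07 (SE, p = 0.000787), with 0.35 in cohort 1 and 0.20 in cohort 2. The highest of the 10 was the shallow replicate 4, and without both libraries the log2 fold change was 0.25 (p = 0.00252).

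Slc9a9, a sodium/proton exchanger of endosomes, rose from 5.06 to 5.86 FPKM (medians), with a log2 fold change of 0.29 ± 0.08. Its lowest sedentary value, 4.03 FPKM, was in replicate 6 and its highest 14-7-0 value, 7.93 FPKM, in the shallow replicate 4. Rin2, an exchange factor for the endosomal GTPase Rab5, rose from 7.67 to 8.74 FPKM, or 0.21 ± 0.06 on the log2 scale, and 7 of the 10 libraries lay above the highest sedentary one. Hrsp12, a deaminase that clears reactive imines, rose from 40.9 to 45.8 FPKM (0.29 ± 0.08). These 3 genes had p between 0.00182 and 0.00206. Ino80c, a subunit of the INO80 chromatin remodeller, rose from 11.3 to 12.3 FPKM (0.17 ± 0.05), and Spsb1, a substrate adaptor of ubiquitin ligases, from 9.24 to 11.8 FPKM (0.35 ± 0.10). Ehhadh, of peroxisomal fatty acid oxidation, rose from 1.35 to 1.73 FPKM (0.41 ± 0.13). Prom1, a membrane glycoprotein, rose by 0.22 ± 0.07 to a median of 5.96 FPKM. The same rule picked Fam204a (0.33), Plekhg1 (0.36) and Pcdhgb1 (0.46). Pcdhgb1 belongs to the gamma-protocadherin cluster, whose members share their last exons, so its value is uncertain. The lowest sedentary value of Pcdhgb1, 2.03 FPKM, was in replicate 6. The highest 14-7-0 values of Ehhadh and Fam204a, 2.43 and 11.8 FPKM, were in the shallow replicate 4.

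Genes of the cytoskeleton, of chromatin and of transcription were among those that fell with the smallest p. Tubb5, a beta-tubulin, had 137, 171 and 201 FPKM (lowest, median, highest) in sedentary mice and 118, 142 and 165 FPKM in 14-7-0. All 10 libraries of 14-7-0 were below the sedentary median and 7 sedentary libraries were above the highest of 14-7-0. The log2 fold change was -0.26 ± 0.07 (p = 0.00219). Ogfod2, an oxygenase-domain gene, fell from 15.8 to 13.6 FPKM (-0.26 ± 0.07), with 8 of 10 libraries below the lowest sedentary one. Kansl3, of the NSL histone acetyltransferase complex, fell from 18.1 to 16.3 FPKM (-0.18 ± 0.05), and Ctbp2, a transcriptional corepressor, from 10.8 to 9.01 FPKM (-0.23 ± 0.08). Med20, a subunit of Mediator, fell from 12.2 to 10.6 FPKM (-0.18 ± 0.06, p = 0.00444). In that gene 9 libraries of 14-7-0 lay below every sedentary library and the shallow replicate 4 lay above them all at 14.1 FPKM, and without that library p was 4.52e-05. Inhbb, which encodes the beta-B subunit of activin B and inhibin B, fell from 1.76 to 1.25 FPKM (-0.63 ± 0.21, p = 0.0065). Its lowest value, 0.351 FPKM, was the shallow library, without which the log2 fold change was -0.47 (p = 0.00614). Dlg5 (-0.22), Tra2a (-0.31), Dok3 (-0.76) and Apex2 (-0.31) fell too, as did Pdia6, which is described with the ER chaperones.

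Genes of cholesterol synthesis were lower after the week of rest. In the list of cholesterol genes, all 20 tested members had a negative log2 fold change against sedentary, with a median of -0.16, whereas the median over all tested genes was -0.01. Of the 20, 6 fell (Mvd, Sqle, Dhcr7, Idi1, Fdft1 and Ebp) and 0 rose, against 1.66% of all genes that fell. Because RNA of the whole tissue was measured, fewer cells of a type and less RNA per cell cannot be told apart.

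Sqle, squalene epoxidase, had 20.5, 23.3 and 30.2 FPKM (lowest, median, highest) in sedentary mice and 15.9, 21.02 and 25.3 FPKM in 14-7-0, where 5 of 10 libraries were below the lowest sedentary value (-0.23 ± 0.08, p = 0.00997). Its log2 fold change was -0.23 in each cohort and -0.25 (p = 0.00786) without both libraries. Mvd, the decarboxylase that makes isopentenyl diphosphate, had 7.20, 8.88 and 12.2 FPKM in sedentary mice and 6.36, 7.43 and 10.7 FPKM in 14-7-0 (-0.27 ± 0.10, p = 0.0133). Idi1, which interconverts the 2 isoprenoid building blocks, had 20.6, 26.3 and 28.1 FPKM in sedentary mice and 17.4, 21.01 and 31.7 FPKM in 14-7-0 (-0.20 ± 0.09, p = 0.0425, and 0.083 without the shallow library). In each of these genes the groups overlapped, and 8 or 9 of the 10 libraries of 14-7-0 were below the sedentary median. Dhcr7, a sterol reductase at the end of the pathway, fell by 0.21 on the log2 scale (p = 0.0404). Fdft1, squalene synthase, and Ebp, a sterol isomerase, fell by 0.16 and 0.20 (p = 0.0435 and 0.0465). Hmgcs1, an enzyme of the mevalonate pathway, did not pass the test, at -0.12 (p = 0.204).

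The direction of the list did not rest on the libraries that stood apart. Without both, all 20 genes were again lower, with a median of -0.14, and 5 fell, where 1.92% of all genes did. Of these, Mvd, Idi1 and Sqle were called in both fits, and Mvk and Pmvk came in place of Dhcr7, Fdft1 and Ebp. Leaving out either library alone left 4 genes called. The median was -0.14 in cohort 1 and -0.13 in cohort 2, with 2 and 1 genes called. Under median ratio scaling 19 of 20 genes were lower and 4 were called, and under quantile normalization 19 were lower and 2 were called. The individual calls were thus less stable than the direction.

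**Figure D1:**
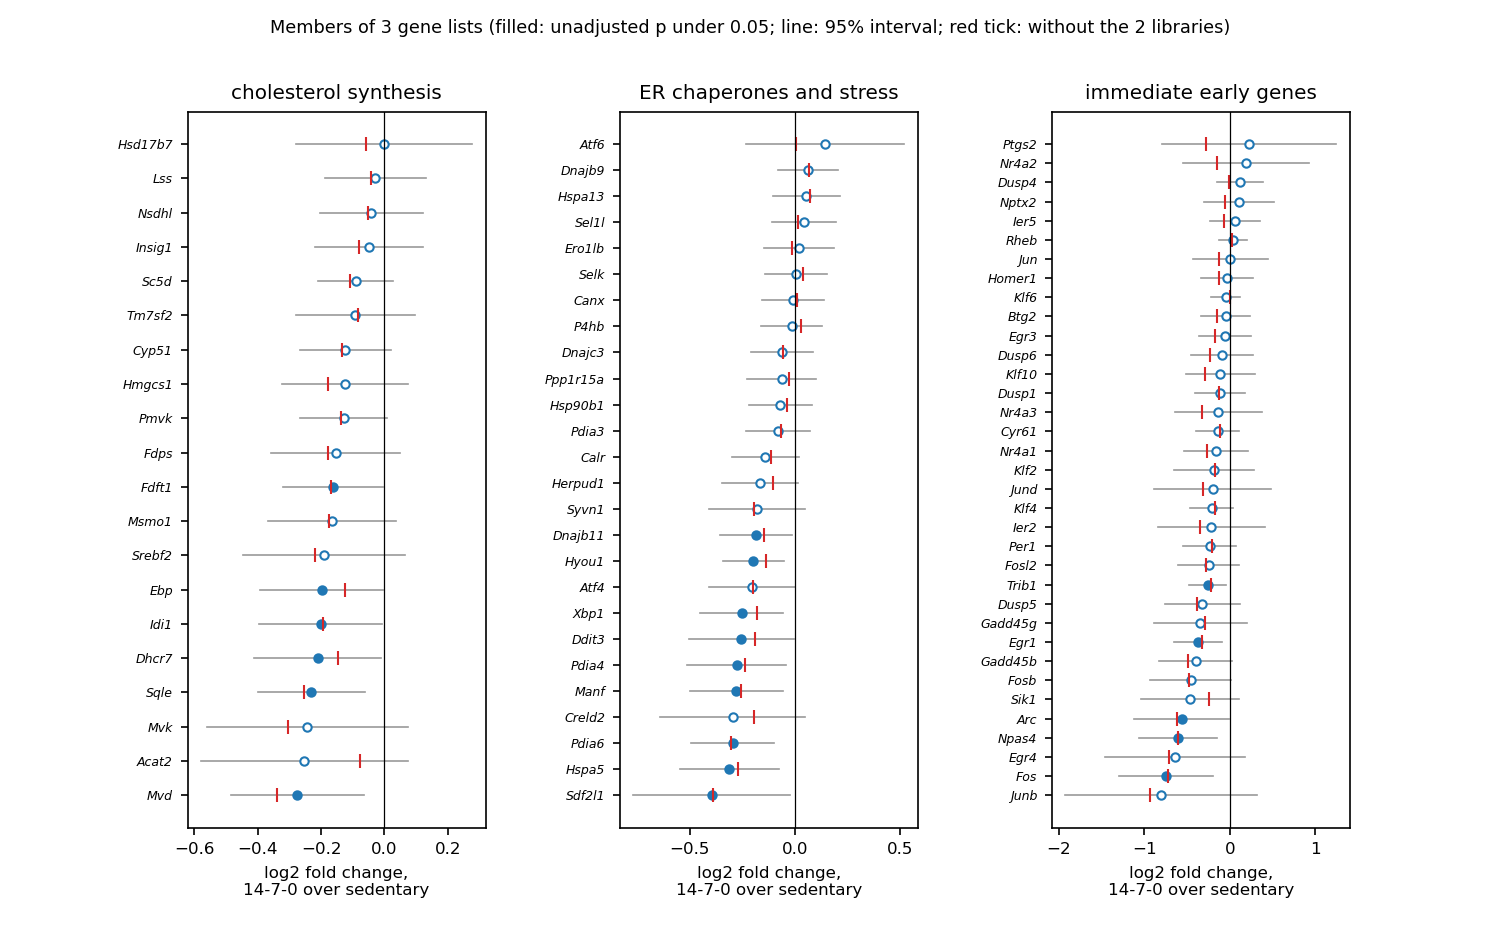
Log2 fold change of 14-7-0 over sedentary (x axis) for each tested member of the cholesterol synthesis, ER chaperone and immediate early gene lists (y axis). Points are filled where the unadjusted p was under 0.05, grey lines are 95% intervals, and red ticks give the value without sedentary replicate 6 and 14-7-0 replicate 4. All 20 cholesterol genes lie left of 0, with Hsd17b7 almost on it.

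The upstream sequences of Idi1 and Mvd are shown, which fell with and without the 2 libraries and had an entry in the RefSeq promoters (GRCm38.p6, 250 bases before the start site, read along the gene). Capitals mark the letters CCAAT, searched on both strands, a motif bound by nuclear factor Y, the known partner of SREBP-2.
Idi1 promoter, chr13:8885356-8885605, plus strand: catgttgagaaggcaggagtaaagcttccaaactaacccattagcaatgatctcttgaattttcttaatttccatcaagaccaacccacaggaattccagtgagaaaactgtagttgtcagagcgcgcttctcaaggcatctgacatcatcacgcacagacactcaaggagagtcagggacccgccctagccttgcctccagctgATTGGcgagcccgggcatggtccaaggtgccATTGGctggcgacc
Mvd promoter, chr8:122443423-122443672, minus strand: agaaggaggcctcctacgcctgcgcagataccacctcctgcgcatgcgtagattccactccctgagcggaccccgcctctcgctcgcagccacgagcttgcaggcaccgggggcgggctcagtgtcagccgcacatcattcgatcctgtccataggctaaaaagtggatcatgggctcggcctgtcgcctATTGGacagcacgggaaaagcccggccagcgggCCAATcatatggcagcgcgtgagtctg
CCAAT stood in 16 of the 20 promoters found for 17 of the list's 21 genes (80%), and in 33.8% of all 32851 promoters of this length. It also stood in 18 of 21 promoters of the ER chaperone list described below (85.7%), so it was not particular to the cholesterol genes. A site for SREBP-2 itself was not searched. A match is a description of the sequence and does not show that a factor was bound.

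Against the other running groups the cholesterol genes separated further. Directly after 14 days of running (14-0-0), Idi1 had 20.4, 28.0 and 36.2 FPKM (lowest, median, highest), and after rest plus 2 more days of running (14-7-2) it had 22.5, 27.4 and 34.8 FPKM, both with a median above that of 14-7-0, while the ranges overlapped. The log2 fold change of 14-7-0 was -0.42 ± 0.11 over 14-0-0 (p = 0.00078) and -0.38 ± 0.09 over 14-7-2 (p = 0.000523). Msmo1, a sterol methyl oxidase, had -0.39 (p = 0.00073) and -0.37 (p = 0.000807). All 20 genes were lower in both comparisons, with medians of -0.22 and -0.24. Over 14-0-0, 13 of the 20 fell, where 3.6% of all 12994 genes fell and 2.03% rose. Over 14-7-2, 14 of the 20 fell, where 2.03% of all genes fell and 3.36% rose. The 3 comparisons share the 14-7-0 libraries and are therefore not independent of each other. The study gives as a caveat that the distance run in the initial exercise period varied across its groups. It also states that mice with the week of rest ran more than mice without a delay. Rest and the amount run are thus not separated in the comparison with 14-0-0, here and below. The part of running distance in these differences was not tested.

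These counts did not depend on the shallow library or on scaling. Without 14-7-0 replicate 4, 14 and 14 cholesterol genes fell, and after quantile normalization 13 and 14 did. Within cohorts the median was -0.26 and -0.20 over 14-0-0 and -0.33 and -0.17 over 14-7-2. Myelin genes moved the other way in the same comparisons. Of 14 oligodendrocyte and myelin markers, 8 rose over 14-0-0 (median 0.31) and 9 over 14-7-2 (median 0.32), while 0 were called against sedentary (median 0.04). Their median in cohorts 1 and 2 was 0.24 and 0.39 over 14-0-0, but 0.08 and 0.54 over 14-7-2. The summed level of these 14 markers ranged from 2780 to 4460 FPKM in 14-7-0 and from 1906 to 7690 FPKM in sedentary mice, the highest being sedentary replicate 6. Choroid plexus markers moved with the cholesterol genes over 14-0-0, where all 21 fell (median -2.06), while 0 of the 21 fell over 14-7-2 (median -0.42). The part of oligodendrocyte or choroid plexus content in the cholesterol values was not tested.

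**Figure D2:**
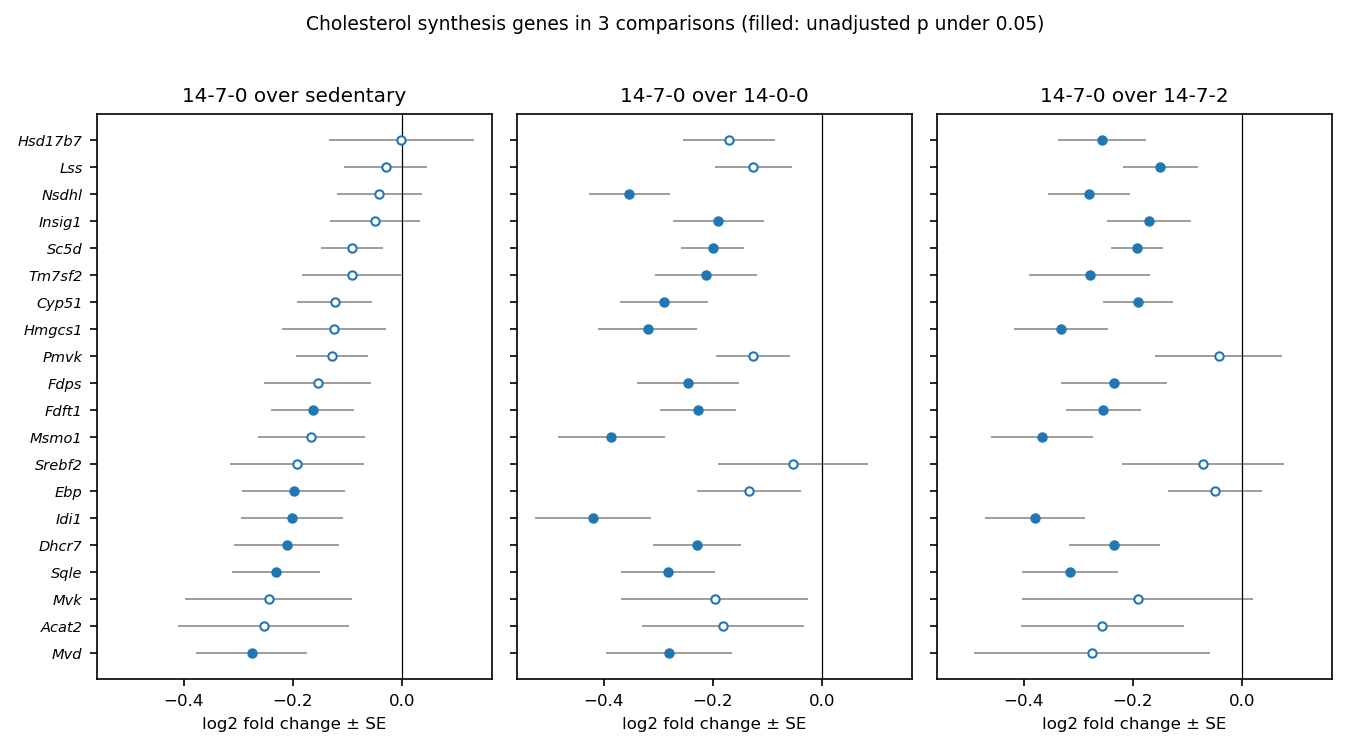
Log2 fold change with its SE (x axis) of the 20 cholesterol synthesis genes (y axis) for 14-7-0 over sedentary, over 14-0-0 and over 14-7-2. Filled points had an unadjusted p under 0.05, which were 6, 13 and 14 genes.

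ER chaperones were also lower than in sedentary mice, although with fewer calls left when the 2 libraries were set aside. Of 26 tested ER genes 9 fell and 0 rose, against 1.66% of all genes that fell, and the list's median log2 fold change was -0.15. The mean log2 level of the 26 genes had an SD of 0.16 across the sedentary libraries. The members that fell were the chaperones Hspa5 (BiP), Hyou1, Dnajb11 and Sdf2l1, the disulfide isomerases Pdia4 and Pdia6, the secreted factor Manf, and the transcription factors Xbp1 and Ddit3 (CHOP) of the unfolded protein response. The abundant chaperones Hsp90b1 (-0.07, p = 0.35) and Calr (-0.14, p = 0.0806) did not pass the test.

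Hspa5, the master chaperone and sensor partner of the response, had 94.7, 108 and 194 FPKM (lowest, median, highest) in sedentary mice and 75.8, 97.9 and 113 FPKM in 14-7-0. The groups overlapped, with 8 of 10 libraries of 14-7-0 below the sedentary median and 4 sedentary libraries above the highest of 14-7-0. The log2 fold change was -0.31 ± 0.11 (p = 0.0122). Pdia6 had 48.9, 56.8 and 89.6 FPKM in sedentary mice and 41.5, 50.9 and 56.9 FPKM in 14-7-0 (-0.30 ± 0.09, p = 0.005), and Hyou1 had 25.5, 28.9 and 37.6 FPKM against 21.5, 25.7 and 28.5 FPKM (-0.20 ± 0.07, p = 0.0105). For Hyou1 all 10 libraries of 14-7-0 were below the sedentary median. Manf fell from 18.7 to 15.8 FPKM (-0.28 ± 0.11, p = 0.0164) and Xbp1 from 37.6 to 31.2 FPKM (-0.25 ± 0.09, p = 0.0142).

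Sedentary replicate 6 was among the high libraries, at 156 FPKM of Hspa5 and 49.5 FPKM of Xbp1. Without both libraries 4 of the 26 genes fell (Hspa5, Pdia6, Manf and Hyou1) and the median was -0.11. The median was -0.15 in cohort 1 and -0.09 in cohort 2, and it was negative under both other scalings (-0.15 and -0.13). In contrast to the cholesterol genes, 0 of the 26 were called against 14-0-0 (median -0.02), and 4 rose over 14-7-2 (Hsp90b1, Calr, P4hb and Pdia6; median 0.06).

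The promoters of Hspa5 and Pdia6 are shown because both genes fell with and without the 2 libraries and both carry the ER stress element. Capitals mark this element, the letters CCAAT, 9 bases of any kind and CCACG, searched on both strands; its first 5 letters also count as the CCAAT motif above.
Hspa5 promoter, chr2:34771840-34772089, plus strand: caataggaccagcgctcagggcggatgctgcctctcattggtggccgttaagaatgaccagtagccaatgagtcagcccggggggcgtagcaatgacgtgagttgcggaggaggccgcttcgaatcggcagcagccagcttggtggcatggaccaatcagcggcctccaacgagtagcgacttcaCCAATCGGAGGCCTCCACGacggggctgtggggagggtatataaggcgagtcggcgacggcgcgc
Pdia6 promoter, chr12:17266339-17266588, plus strand: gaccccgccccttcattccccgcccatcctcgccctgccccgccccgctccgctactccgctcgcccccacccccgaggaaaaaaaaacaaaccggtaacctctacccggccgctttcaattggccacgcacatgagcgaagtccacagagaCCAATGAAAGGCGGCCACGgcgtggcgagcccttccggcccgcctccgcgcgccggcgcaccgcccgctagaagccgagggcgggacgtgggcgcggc
The element was found in 8 of 21 promoters of the list (38.1%; Calr, Canx, Creld2, Dnajc3, Hsp90b1, Hspa5, Pdia6 and Syvn1) and in 0.113% of all promoters of this length. Of these 8 genes only Hspa5 and Pdia6 fell in the comparison with all libraries.

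Immediate early genes, read an hour after the same training session, were lower in 14-7-0. Of 35 tested members 5 fell (Fos, Npas4, Arc, Egr1 and Trib1) and 0 rose, against 1.66% of all genes that fell, and the median log2 fold change of the list was -0.19. The mean log2 level of the 35 genes had an SD of 0.39 across the sedentary libraries. Fos had 3.22, 6.10 and 16.3 FPKM (lowest, median, highest) in sedentary mice and 2.80, 4.10 and 5.94 FPKM in 14-7-0. All 10 libraries of 14-7-0 were below the sedentary median, and 5 sedentary libraries were above every 14-7-0 library (-0.74 ± 0.27, p = 0.0109). Egr1, a zinc finger factor, had 45.9, 69.4 and 99.7 FPKM against 45.6, 53.7 and 63.0 FPKM (-0.37 ± 0.13, p = 0.0109), again with all 10 libraries below the sedentary median.

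Arc, whose protein acts at synapses, had 20.9, 46.9 and 109 FPKM in sedentary mice and 21.3, 32.3 and 39.97 FPKM in 14-7-0 (-0.56 ± 0.27, p = 0.0486, and 0.0521 without sedentary replicate 6). The lowest sedentary library was below every 14-7-0 library and 6 were above, so the sedentary group spread around the 14-7-0 values. Npas4, a neuronal activity-dependent factor, had 1.22, 2.25 and 5.15 FPKM against 1.10, 1.63 and 2.71 FPKM (-0.60 ± 0.22, p = 0.0122). Trib1, a pseudokinase, fell by 0.26 (p = 0.0219). The SD of Fos was 4.54 FPKM in sedentary mice and 1.02 FPKM in 14-7-0, and that of Arc was 31.0 and 5.91 FPKM, a difference in spread that was not tested.

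Within cohorts, the fold changes lay further from 0 in cohort 2, although no gene had an adjusted p under 1 for the interaction with cohort in limma. Fos had a log2 fold change of -0.38 in cohort 1 and -1.11 in cohort 2, Arc -0.28 and -0.85, and Npas4 -0.33 and -0.87, with 0 and 6 members called within the cohorts. Without both libraries 9 of the 35 fell (Fos, Fosb, Egr1, Arc, Npas4, Nr4a3, Dusp6, Klf10 and Gadd45b), 33 were lower and the median was -0.24. Nr4a3, an orphan nuclear receptor, was at 5.11 FPKM in sedentary replicate 6, where the sedentary median was 23.8 FPKM. Its log2 fold change was -0.13 (p = 0.595) with that library and -0.36 (p = 0.00867) without it. Against the other running groups the list was not lower: 1 member rose and 0 fell over 14-0-0 (median 0.05), and 3 rose and 1 fell over 14-7-2 (median 0.02).

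**Figure D3:**
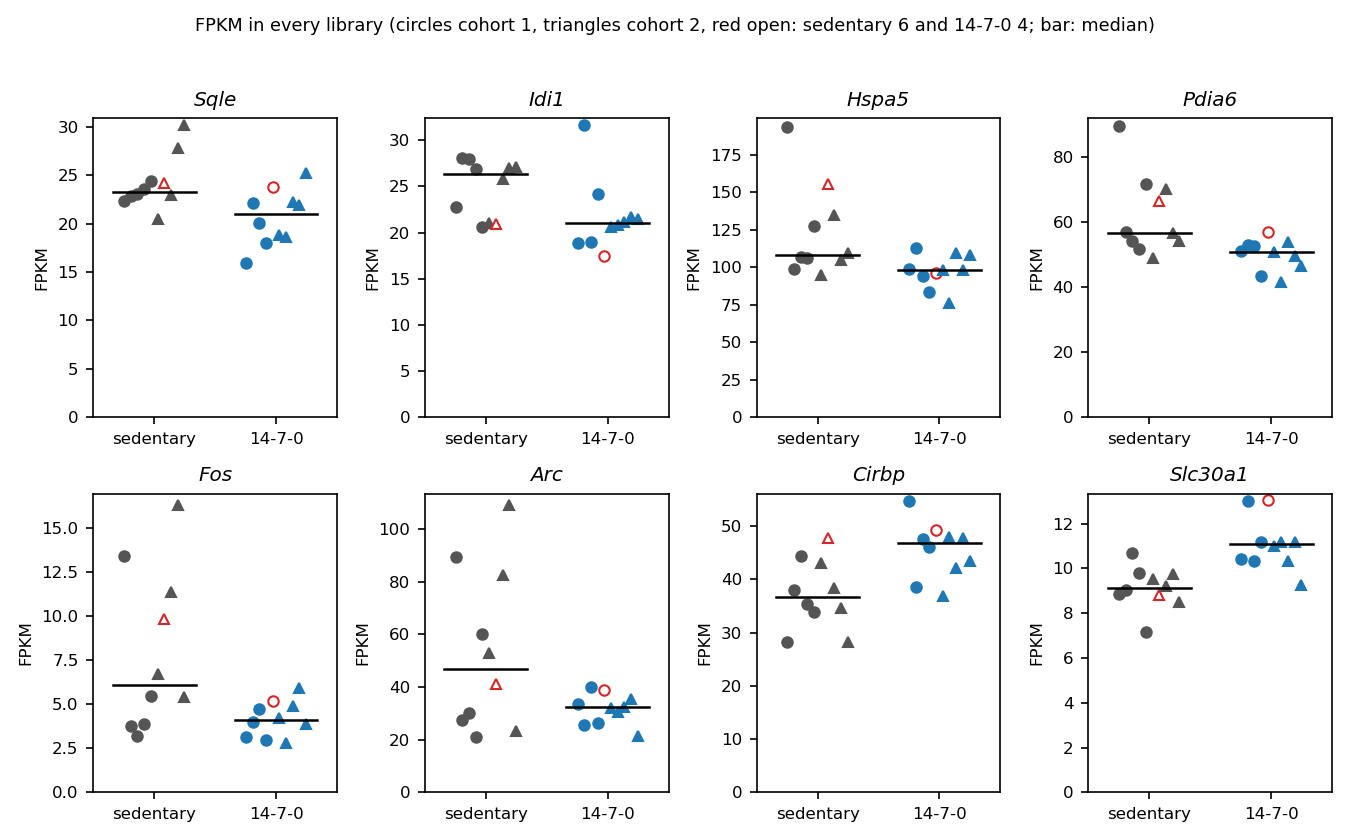
FPKM (y axis) in each of the 10 sedentary and 10 14-7-0 libraries for 8 genes, with circles for cohort 1, triangles for cohort 2, red open symbols for sedentary replicate 6 and 14-7-0 replicate 4, and a bar at the median. The 14-7-0 values of Fos lie between 2.80 and 5.94 FPKM and the sedentary values spread up to 16.3 FPKM.

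A few genes of the 3 lists were set beside all 7 groups. Sqle averaged 20.7 ± 2.88 FPKM (SD, n = 10) in 14-7-0 and 24.2 ± 2.82 in sedentary mice, 25.1 in 14-0-0, 25.8 in 14-7-2, 24.5 after 14 days of rest (14-14-0), 27.7 after 2 days of running alone (0-0-2) and 23.2 in home cage mice without training. The mean of 14-7-0 was the lowest of the 7, as it was for Idi1 (21.7 FPKM, against 23.8 to 30.3 FPKM in the other 6). Hspa5 averaged 97.4 FPKM in 14-7-0, within the range of the other trained running groups (88.1 to 119 FPKM), while sedentary and home cage mice averaged 123 and 132 FPKM. Fos averaged 4.18 FPKM in 14-7-0 and 3.41 to 4.46 FPKM in the other running groups, against 7.94 FPKM in sedentary and 6.09 FPKM in home cage mice. These means are a description without a test.

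**Figure D4:**
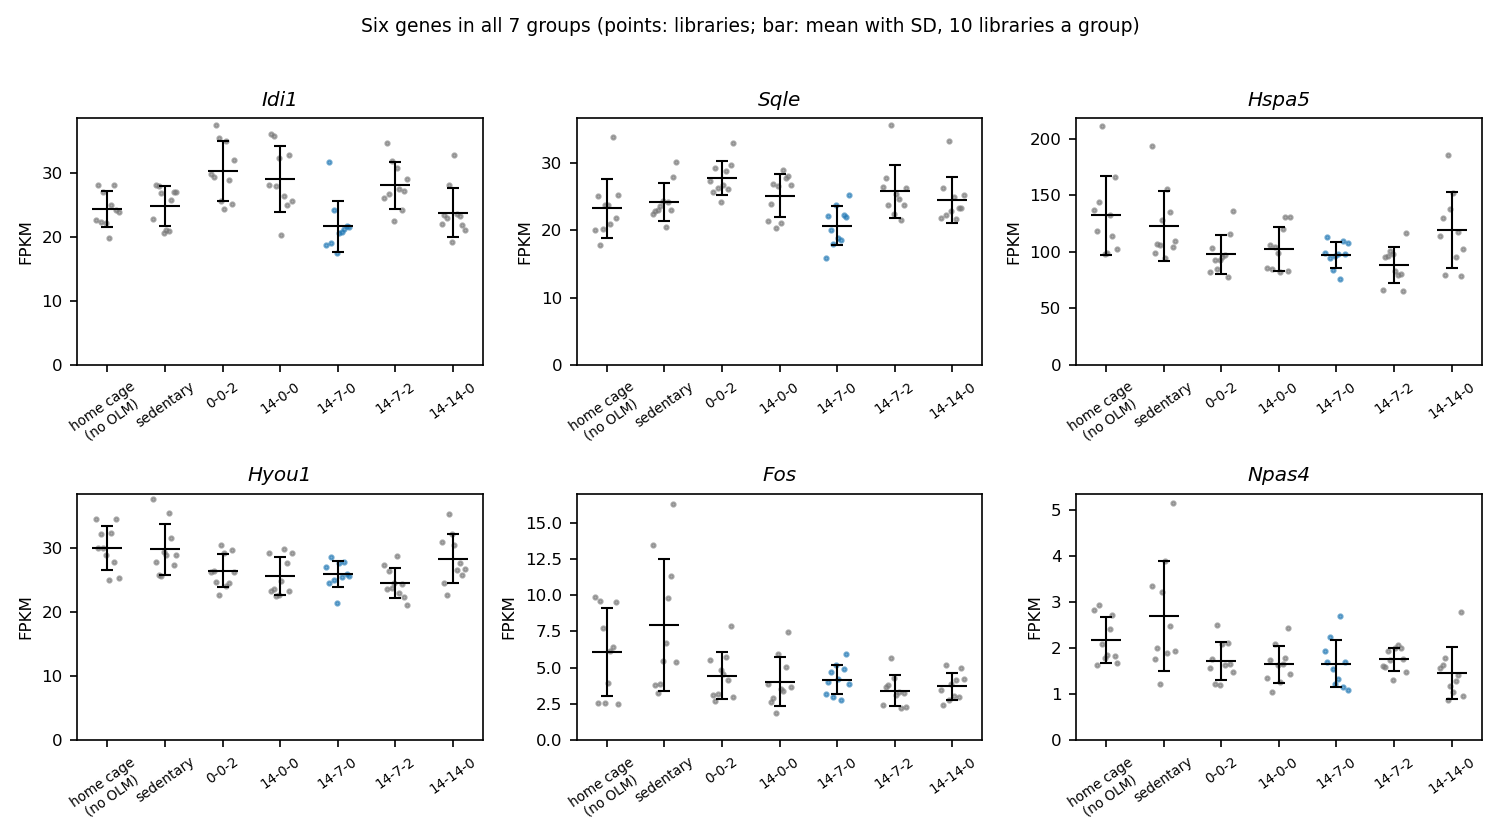
FPKM (y axis) of 6 genes in all 7 groups (x axis), with 10 libraries a group as points and the mean with its SD as bars; 14-7-0 is blue. Sqle has its lowest mean, 20.7 FPKM, in 14-7-0, and Fos its highest mean, 7.94 FPKM, in sedentary mice.

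Smaller groups of signalling genes held single calls. Of 19 glucocorticoid receptors and target genes 2 rose and 0 fell, against 1.6% of all genes that rose, with a median of 0.10. Sgk1, a kinase induced by glucocorticoids, had 34.6, 40.2 and 52.3 FPKM (lowest, median, highest) in sedentary mice and 33.3, 56.2 and 89.6 FPKM in 14-7-0. Of the 10 libraries of 14-7-0, 7 were above every sedentary library and 1 was below them (0.40 ± 0.13, p = 0.00656), and without both libraries the log2 fold change was 0.44 (p = 0.00462). Fam107a, an actin-associated stress-responsive gene, had 111, 124 and 156 FPKM against 127, 140 and 160 FPKM (0.17 ± 0.06, p = 0.00912), and 0.22 (p = 0.000818) without both.

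The cold-inducible RNA-binding proteins rose together, whereas heat shock genes as a group did not. Cirbp had 28.1, 36.6 and 47.7 FPKM in sedentary mice and 36.9, 46.8 and 54.7 FPKM in 14-7-0, all 10 above the sedentary median (0.30 ± 0.09, p = 0.00474). Rbm3 had 50.5, 73.7 and 110.1 FPKM against 73.0, 92.5 and 116.5 FPKM (0.32 ± 0.14, p = 0.0263), but it had a p of 0.0834 without both libraries, while Cirbp had 0.00227. Hsf1, the heat shock factor, fell from 13.9 to 13.0 FPKM (-0.20 ± 0.09, p = 0.0437, with 0.081 without sedentary replicate 6 and 0.0484 without both). The other 18 members of this list of 21 were not called.

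Of 21 clock genes, Arntl (Bmal1) rose by 0.18 on the log2 scale (p = 0.0394) and Per2 fell by 0.24 (p = 0.0351, with 0.0621 without the shallow library and 0.024 without both). Arntl lost its call without sedentary replicate 6, in which it was at 8.22 FPKM (0.12, p = 0.069). Over 14-0-0, 8 clock genes rose and 1 fell, where 2.03% of all genes rose and 3.6% fell. Of 24 metallothioneins and zinc transporters, Slc30a1 rose, as above, and Slc39a13, a zinc transporter of the Golgi, fell by 0.23 (p = 0.0453), a call lost without either library that stood apart. Among 23 genes of lactate, ketone and glucose handling, the neuronal glucose transporter Slc2a3 fell by 0.13 (p = 0.0258) and the glycogen synthase Gys1 by 0.15 (p = 0.0283), and both were called without both libraries.

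Acvr1c, a type 1 receptor for activin and related ligands, and Bdnf, the growth factor linked to running, were genes of interest to the study, Bdnf as a positive control. Acvr1c had 1.30, 3.76 and 4.64 FPKM in sedentary mice and 2.88, 3.65 and 6.02 FPKM in 14-7-0. The groups overlapped, with 4 of the 10 libraries of 14-7-0 above the sedentary median (0.26 ± 0.20, p = 0.21), and the value was 0.12 (p = 0.46) without sedentary replicate 6. Bdnf had 1.18, 20.7 and 22.9 FPKM in sedentary mice and 16.3, 19.9 and 25.6 FPKM in 14-7-0 (0.38 ± 0.38, p = 0.333). The lowest sedentary value was replicate 6, and without it the log2 fold change was -0.02 (p = 0.86). Against 14-0-0 Acvr1c fell by 0.29 (p = 0.0433) and Bdnf fell by 0.25 (p = 0.018). Against 14-7-2 Acvr1c fell by 0.29 (p = 0.028). Both calls of Acvr1c were lost without the shallow library, where it was at -0.24 (p = 0.0823) and -0.24 (p = 0.0551), and that of Bdnf over 14-0-0 was kept (p = 0.022). Against 14-7-2 Bdnf was at -0.14 (p = 0.0768).

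Receptors and Smads of the activin, TGF-beta and BMP pathways held no called member of 18 (median 0.07), and 1 that rose without both libraries (Tgfbr2). Among 18 ligands and antagonists, Inhbb fell, as above, and Grem1, a BMP antagonist, rose by 0.61 (p = 0.026), with its highest value, 7.04 FPKM, in the shallow library and p = 0.054 without it. Of 9 neurotrophins and receptors, the sorting receptor Sorcs3 rose by 0.19 (p = 0.0215), with p = 0.0525 without both libraries.

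A list of 21 genes that the study selected as higher than sedentary only in its memory-enabling running groups (14-0-0 and 14-7-2) was chosen on these samples and is no independent evidence. Genes that the study called higher in 14-7-0 were left out of it. Lower values in 14-7-0 than in the memory-enabling groups were thus favoured by the selection. All 21 were higher in 14-7-0 than in sedentary mice, with a median of 0.26 and 0 called. Without sedentary replicate 6 the median was 0.04. The 11 markers of excitatory neurons had a median of 0.38 and, without that library, of -0.03. The summed level of these markers was 614 FPKM in sedentary replicate 6, a sedentary median of 2797 FPKM and 2298 to 3475 FPKM in 14-7-0. Directly compared, all 21 genes were lower in 14-7-0 than in 14-0-0 (median -0.09, 6 fell) and than in 14-7-2 (median -0.14, 5 fell), where 3.6% and 2.03% of all genes fell. Without the shallow library 4 fell in each, and after quantile normalization 4 and 3 did.

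**Figure D5:**
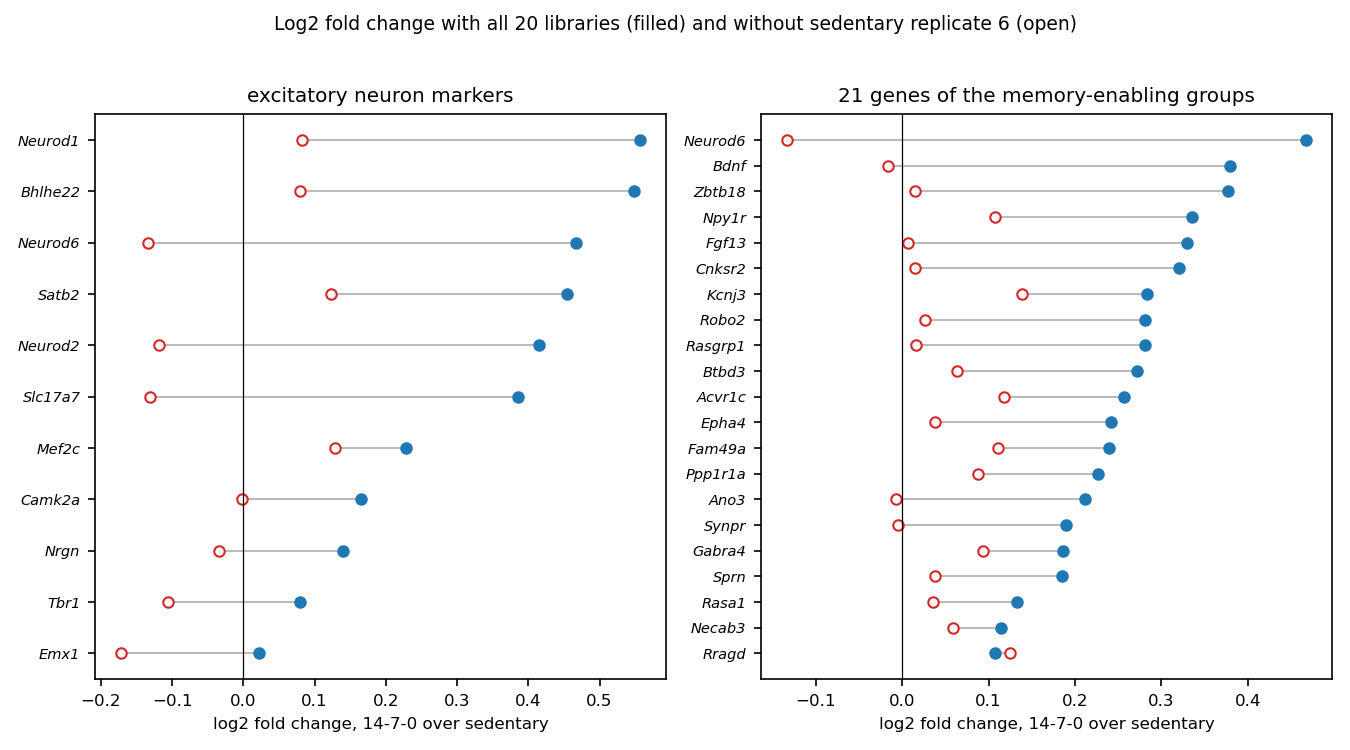
Log2 fold change of 14-7-0 over sedentary (x axis) with all 20 libraries (filled) and without sedentary replicate 6 (open) for 11 excitatory neuron markers and the study's 21 genes (y axis). The medians move from 0.38 to -0.03 and from 0.26 to 0.04.

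Other programs that were examined held few or no called genes. No member was called among 36 genes of mitochondrial complex I (median -0.05), 41 of complexes III, IV and V (-0.05), 82 cytosolic ribosomal proteins (0.00), 18 AMPA and NMDA receptor subunits (0.04), 12 GABA-A receptor subunits (0.14), 25 exercise-linked growth and metabolic factors (0.02), 18 neurogenesis genes (0.02) and 18 neuropeptides and their receptors (0.04). Of 18 histone deacetylases and corepressors Suz12 rose by 0.18 (p = 0.026), and of 13 CREB family members and coactivators Kat2a fell by 0.15 (p = 0.0225). Neither was called without both libraries. In that fit the neurogenesis genes Dcx and Igfbpl1 and the neuropeptide Tac2 rose.

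Few markers of cell types were called. Of 8 oligodendrocyte precursor, 11 astrocyte, 5 erythrocyte, 21 choroid plexus, 9 ependymal, 12 dentate gyrus, 9 CA3, 14 inhibitory neuron and 11 thalamus and habenula markers tested, 0 were called with all libraries. Without both, the CA3 markers Grik4 (-0.52, p = 0.0277) and Cdh24 (-0.47, p = 0.0231) fell and 8 of the 9 were lower (median -0.37), the dentate gyrus marker Il16 fell, and Tac2, also a habenula marker, rose. Single markers rose for microglia (Cx3cr1, 0.13), endothelium (Tek, 0.19), meninges (Aldh1a2, 0.61), CA1 (Man1a, 0.31) and neocortex (Lamp5, 0.17), of 12, 11, 10, 10 and 11 tested. Without both libraries Man1a and Lamp5 were called among these 5. All 10 CA1 markers were higher than in sedentary mice (median 0.36), also without both libraries (median 0.15). Over 14-7-2 all 10 were higher and 3 rose (median 0.28), where 3.36% of all genes rose. Of the 9 CA3 markers 4 fell over 14-7-2 (median -0.42), where 2.03% of all genes fell. Over 14-0-0 no CA1 or CA3 marker was called (medians 0.08 and -0.19). The part of subfield content in other values was not tested. The choroid plexus list had a median of 0.27 against sedentary, with a summed level up to 2492 FPKM in 14-7-0 replicate 7, where its marker Ttr was at 2085 FPKM.

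The direct comparisons with the other running groups were led by other genes. Over 14-0-0, 264 genes rose and 468 fell, with 0 passing adjustment in limma (smallest adjusted p = 0.362). The genes of smallest p were Zfp180, a zinc finger gene that rose by 0.24, and Pgam2, the muscle-type phosphoglycerate mutase, which fell by 0.63 (p = 5.75e-05). Mylk3 (-0.81), the sterol dehydrogenase Nsdhl (-0.35) and the neuronal factor Nhlh1 (-0.59) followed. Over 14-7-2, 436 rose and 264 fell, again with 0 past adjustment. Zfp180 had 13.7, 14.6 and 16.1 FPKM in 14-7-2 and 16.0, 17.2 and 20.1 FPKM in 14-7-0 (0.27 ± 0.04, limma adjusted p = 0.0751, and 0.0515 without the shallow library). Next came Acss2, an acetyl-CoA synthetase that is also a target of SREBP, which fell by 0.34 (p = 0.000142), Thbs4, a secreted thrombospondin, which rose by 0.58 (p = 0.000178), the engulfment receptor Megf10 (0.25) and the cholesterol transporter Npc1 (0.22). Against sedentary mice none of Zfp180, Acss2, Thbs4, Megf10 and Npc1 was called, with log2 fold changes of 0.12, -0.09, 0.26, 0.09 and 0.02. The share of higher genes over 14-0-0 was 36.1% of those called and 50.4% after quantile normalization, a setting added after seeing the data, while over 14-7-2 it was 62.3% and 65.7%.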

How the data were processed

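RNA-seq was made from dorsal hippocampus with a poly(A) TruSeq kit and single reads; the authors aligned the reads with ELAND and Bowtie (mm10), kept uniquely placed reads, and deposited FPKM per gene from the Tuxedo tools (Cuffnorm in the submitters' processing notes). The deposited FPKM table held 24346 genes in 70 columns, all mapped to samples by name, and no counts, so depth was judged only from the spacing of low values and the genes at 0. FPKM were converted to log2(FPKM + 0.1), which understates the change of low genes. The 12994 genes averaging 1 FPKM or more over all columns were fitted by limma 3.58.1 in R 4.3.3 on the 2 groups of a comparison, without covariates, and adjusted by Benjamini-Hochberg. For Cyber-T, an own implementation shrank each variance toward that of 101 genes of like level, with a prior weight of 10. The scripts were tested on simulated data. Genes named first were the 12 of smallest p in each direction that were called with and without both libraries and kept their sign in both cohorts, leaving out small RNAs and unnamed gene models. To these were added Acvr1c and Bdnf, the called members and up to 4 of smallest p in each of 38 gene lists, and the 5 of smallest p in each comparison. Hmgcs1, Msmo1, Hsp90b1, Calr, Fosb, Nr4a3, Neurod6, Slc17a7, Calb2, Ttr, Hmgb3 and the genes given only by name in other fits were chosen after their values were seen. A few items are not reported here and were left out of the lists. The members and lists were chosen with earlier results of these data known. Alternatives covered the pseudocount, low-value filter, scaling, test, covariates, cohorts, libraries and threshold. Promoter sequences are from RefSeq.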

Additional observations from a re-analysis of the deposited data

Results flagged for a closer look

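In each group of 10 libraries, the highest or lowest value was checked for standing apart from the rest by Dixon's criterion, the gap to the nearest library over the group's range. Of 178 such groups of values 25 were marked, where chance would mark about 1 in 20, or 8.9, if the groups were independent and not picked by their values. Some of the genes were named after their values were seen, and values from the same library are not independent. The 25 can therefore not be tested against the 8.9. Of the 25, 14 were in sedentary replicate 6 and 7 in 14-7-0 replicate 4.

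Sedentary replicate 6 was far below the other sedentary libraries for Neurod6 (2.45 FPKM), Slc17a7 (17.1 FPKM), Bdnf (1.18 FPKM), Nr4a3 (5.11 FPKM), Pcdhgb1 (2.03 FPKM), Arntl (8.22 FPKM), Zfp180 (12.8 FPKM), Mylk3 (0.0993 FPKM) and Nhlh1, which was listed at 0 FPKM. It was far above them for Slc32a1 (175 FPKM), Calb2 (121 FPKM), Ctbp2 (14.0 FPKM), Apex2 (3.48 FPKM) and Hmgb3 (30.1 FPKM).

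The 14-7-0 replicate 4 had a relative depth of 0.0360 and stood below the other 14-7-0 libraries for Tra2a (19.0 FPKM), Hyou1 (21.5 FPKM), Ebp (5.83 FPKM) and Hmgb3 (3.06 FPKM), and above them for Med20 (14.1 FPKM) and Mvd (10.7 FPKM). The value of Mvd in this library went against the direction of the group and that of Ebp with it.

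In other 14-7-0 libraries, Ddit3 was low in replicate 9 (14.8 FPKM), Dhcr7 was high in replicate 9 (18.2 FPKM), Man1a was high in replicate 3 (35.2 FPKM) and Neurod6 was high in replicate 1 (269 FPKM).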

How the results depend on the processing

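The share of genes called moved with the processing, while the direction of the leading genes, in part fixed by how they were picked, did not. Against 1.6% of the tested genes higher and 1.66% lower (208 and 216 genes), the shares were 1.53% and 2.02% with no filter on low values (318 and 420 genes, of a longer table), 3.66% and 3.23% in a joint fit of all 7 groups, 0.823% and 1.19% with Cyber-T on FPKM, 0.885% and 0.993% with Cyber-T on log2 values, 0.87% and 0.839% in cohort 1 only, 0.777% and 0.585% in cohort 2 only, and 0.246% and 0.162% at an unadjusted p under 0.01. Leaving out sedentary replicate 6 or 14-7-0 replicate 4 gave 1.63% to 1.82% higher and 1.66% to 1.9% lower. Against 14-0-0, 3.65% (474 genes) were called in cohort 1 only, an alternative chosen after seeing the data, against 5.63% (732 genes); without the shallow library the share was 5.85%, and over 14-7-2 it was 5.77% against 5.39%. For the difference between cohorts, 0.392% to 0.831% were called without one of the 2 libraries and 0.962% (125 genes) without both, against 0.362% (47 genes), each with a smallest adjusted p of 1 in limma.

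With the replicate number as a block, 267 genes were higher and 392 lower (3.02%) against sedentary, and 1 gene had an adjusted p under 0.05 in limma over 14-7-2 (0.0484), where 0 had without it. Against sedentary with the block, 9 of the 20 cholesterol genes and 8 of the 35 immediate early genes fell, against 6 and 5. The numbers did not pair the libraries: the correlation of deviations of same-numbered libraries ranged from -0.17 to 0.29, only 6 of 10 pairs exceeded 0.1, and 0 of 10 libraries correlated best with their own number. Of 64 called named genes none changed sign under any alternative that kept it, 49 were called without sedentary replicate 6, 51 without 14-7-0 replicate 4, 44 without both, 40 with Cyber-T on log2 values, 26 in cohort 1 only and 25 in cohort 2 only. The genes named first were picked for being called without both libraries and for their sign in both cohorts. For them these outcomes were fixed in advance. All 424 called genes, named or not, had the same sign in both cohorts, so a kept sign adds little to the call. Values had no counts, so no counting interval could be given, and a log2 difference under about 0.22 was within the median interval.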

Other observations

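Snora30, a small nucleolar RNA, had the second smallest p against sedentary. It was listed at 0 FPKM in all 10 libraries of 14-7-0 and all 10 of 14-0-0, and in sedentary mice it was listed at 0 in 4 libraries and at 171, 201, 224, 257, 569 and 646 FPKM in the other 6. Such short genes are poorly covered by a poly(A) library, and an exact 0 can be a failed estimate, so no fold is given. The unnamed transcripts 9630013A20Rik (from 1.84 to 2.59 FPKM, medians) and Gm9079 (from 1.13 to 1.49 FPKM) were also among the 5 genes of smallest p, with log2 fold changes of 0.54 and 0.35.

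Hmgb3, a chromatin-binding protein, had extreme values in both libraries that stood apart: it was at 30.1 FPKM in sedentary replicate 6 and 3.06 FPKM in 14-7-0 replicate 4, with a log2 fold change of -0.02 (p = 0.932). Without both it was 0.34 (p = 6.37e-05), with an adjusted p of 0.452 in limma, the smallest of that fit together with Med20. Igfbpl1, a gene of immature neurons, had 0.54 (p = 0.122) with all libraries and 0.74 (p = 0.00339) without both.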
